A study of Rattus norvegicus with 36 samples.

Results

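Cnr1, the gene of the cannabinoid receptor CB1, was followed as 1 gene of the 32623 Ensembl identifiers counted in this series. It was taken by its identifier, ENSRNOG00000008223, which names it in the count files without using any measured value. RNA came from Sprague Dawley rats (spelled "Sparague Dawley" in the labels) that had learned a rat gambling task on a touch screen, in which 4 light signals differ in the size and odds of reward and punishment. Once free choices were stable, 9 rats were classed as risk-averse and 10 as risk-seeking, and total RNA was taken from 2 dissected regions. These were the medial prefrontal cortex, called PFC here, and the nucleus accumbens, called NAc. This gave 36 libraries in 4 groups of 9: risk-averse PFC, risk-seeking PFC, risk-averse NAc and risk-seeking NAc. No untrained rats are among the samples, and all groups share the training. Age, sex and any treatment are not stated in the labels. Both regions were sequenced from 17 rats, 9 risk-averse and 8 risk-seeking.

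CB1 is a receptor coupled to inhibitory G proteins and sits mainly on axon terminals. Lipid messengers made by the postsynaptic cell, 2-arachidonoylglycerol and anandamide, travel back across the synapse, bind it and reduce transmitter release. In the cortex its mRNA is known to be most abundant per cell in interneurons that contain cholecystokinin, with lower levels in pyramidal cells. In the striatum it is made by spiny projection neurons and some interneurons. The mRNA lies in cell bodies, whereas much of the protein is carried to terminals elsewhere, so RNA from a dissected region reports on the cells whose bodies lie there. In whole tissue, fewer cells that express a gene and less RNA per cell cannot be told apart.

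Each library held between 18436025 and 34761269 counts assigned to genes. Cnr1 alone received 6541 to 10016 counts in PFC libraries and 1625 to 3458 in NAc libraries, so counting error was 0.999% to 1.24% of the value in PFC and 1.70% to 2.48% in NAc. Levels are given as CPM, counts relative to library size, scaled by the trimmed mean of M-values (TMM) over all libraries. Mean shares of some read categories were unequal between the preference groups. The ambiguous share, ambiguous read pairs over ambiguous plus gene-assigned pairs, averaged 0.655% ± 0.0417 in PFC of risk-averse rats against 0.719% ± 0.0331 in PFC of risk-seeking rats (SD, n = 9 each). In NAc it was 0.690% ± 0.0369 against 0.741% ± 0.0238. The unassigned share, pairs given to no feature over those plus the assigned and ambiguous pairs, was 25.0% ± 1.98 and 23.3% ± 0.666 in PFC and 27.6% ± 2.61 and 25.7% ± 1.02 in NAc. The labelled tissues were not checked against marker genes, because the identifiers were paired with no symbols in the tables used here.

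Cnr1 was about 4-fold higher in PFC than in NAc in both preference groups. In risk-averse PFC it ranged from 301 CPM (rat R9) through a median of 331 to 349 CPM (rat N6), with a mean of 330.2 ± 18.2 CPM (SD, n = 9). In risk-seeking PFC it ranged from 271 CPM (rat BR5) through a median of 324 to 336 CPM (rat R2), with a mean of 316 ± 23.3 CPM (SD, n = 9). The PFC libraries thus lay close together, with a highest value 1.29 times the lowest over all 18.

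The NAc values were lower and, relative to their mean, more widely spread, with a coefficient of variation of 19.3% over 18 libraries against 6.67% in PFC. In CPM the SD was smaller in NAc, at 15.4 against 21.6. Risk-averse NAc ranged from 59.9 CPM (rat B2) through a median of 82.9 to 103 CPM (rat N7), with a mean of 82.4 ± 13.7 CPM (SD, n = 9). Risk-seeking NAc ranged from 60.5 CPM (rat N3) through a median of 68.1 to 114 CPM (rat R2), with a mean of 76.9 ± 17.3 CPM (SD, n = 9). The highest NAc library, R2, stayed far below the lowest PFC library, so the regions did not overlap. Regional differences were common, with 77.3% of 15936 genes called in edgeR. How many of them also separate without overlap was not counted. In the order of mean Cnr1 levels, risk-averse PFC stood first, then risk-seeking PFC, risk-averse NAc and risk-seeking NAc. The neighbours within a region did not differ beyond their spread, as tested below.

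**Figure D1:**
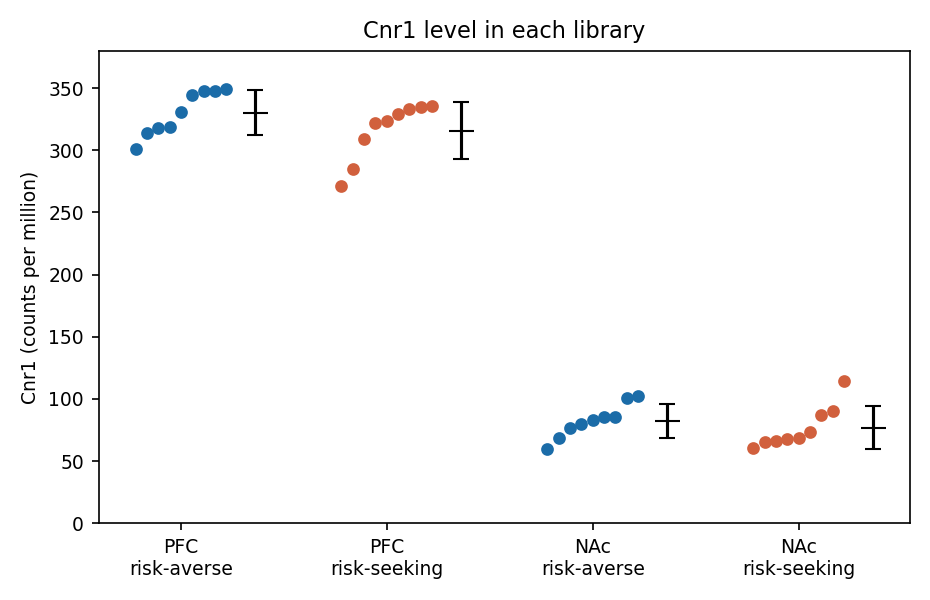
Cnr1 level in CPM (y axis, from 0) in the 36 libraries, by region and preference (x axis). Points are libraries in ascending order within a group and bars are the mean ± SD of 9. PFC libraries sit between 271 and 349 CPM and NAc libraries between 59.9 and 114 CPM.

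The first comparison asked how much Cnr1 differs between the dissected regions. The log2 fold change of PFC over NAc was 2.02 ± 0.07 (SE, 36 libraries, edgeR quasi-likelihood test with preference as a covariate, Benjamini-Hochberg adjusted p = 4.36e-27), a 4.06-fold difference with a 95% interval of 3.70 to 4.45. This fit treats the libraries of a rat as independent. With the animal as a block, over rats with both regions, it was 2.03 ± 0.07 (SE, edgeR adjusted p = 1.17e-16). A call between regions is common in these data, since 12313 of 15936 genes passed (77.3%, made up of 38% higher and 39.3% lower in PFC). Only 436 genes (2.74%) had a larger excess in PFC, while 1264 (7.93%) passed with at least 2-fold higher levels there. Fitted alone, risk-averse libraries gave a 95% interval of 1.83 to 2.17 for the log2 fold change and risk-seeking libraries 1.79 to 2.21.

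Within single rats the difference always had the same direction. Cnr1 was higher in PFC than in NAc of the same animal in 17 of 17 rats, by 2.03 ± 0.30 on the log2 scale (SD, n = 17, two-sided sign-flip permutation test, p = 2e-05). Every difference was positive, and this p is an estimate from 100000 random resamples. How many other genes keep the same direction in all rats was not counted. The Cnr1 ratio differed between animals. It was smallest in rat R2, at 336 CPM in PFC over 114 CPM in NAc (2.94-fold), and in rat BR5, at 271 over 90.1 CPM (3.01-fold). It was largest in rat B2, at 345 over 59.9 CPM (5.76-fold), and in rat N3, at 335 over 60.5 CPM (5.53-fold). Of these, R2, BR5 and N3 were risk-seeking and B2 was risk-averse. The NAc library of B2 had the highest unassigned share of all libraries, 33.0%.

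The size of a rat's regional difference was not detectably related to its preference. It averaged 2.04 ± 0.34 on the log2 scale in 8 risk-seeking and 2.02 ± 0.27 in 9 risk-averse rats (SD), a difference of 0.02 (two-sided exact permutation test, p = 0.887). As an interaction over all 36 libraries, without the animal as a block, the difference was 0.04 ± 0.13 (SE, 95% interval -0.23 to 0.30, edgeR adjusted p = 0.983). No gene passed that test (0% of 15936, with 387 at an unadjusted p under 0.05 in edgeR and 0 called by DESeq2). With the animal as a block the interaction of Cnr1 was 0.02 ± 0.14 (SE, edgeR adjusted p = 0.969).

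No relation was detectable between a rat's level in one region and its level in the other. Over the 17 rats with both regions, Pearson's r between log2 CPM in PFC and in NAc was -0.047 (permutation p = 0.857) and Spearman's rho was 0.00 (permutation p = 1). Without rats BR4 and BR5, the farthest from the PFC median, r was -0.050 (permutation p = 0.860). Within risk-averse rats r was -0.22 (n = 9, exact permutation p = 0.564, with rho = 0.13, of the other sign) and within risk-seeking rats -0.055 (n = 8, exact permutation p = 0.890), with an adjusted p of 0.890 for each of these 3 relations. Deviations over all genes were shared between the regions of a rat (correlations of 0.130 to 0.551 across genes, which are not independent replicates).

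**Figure D2:**
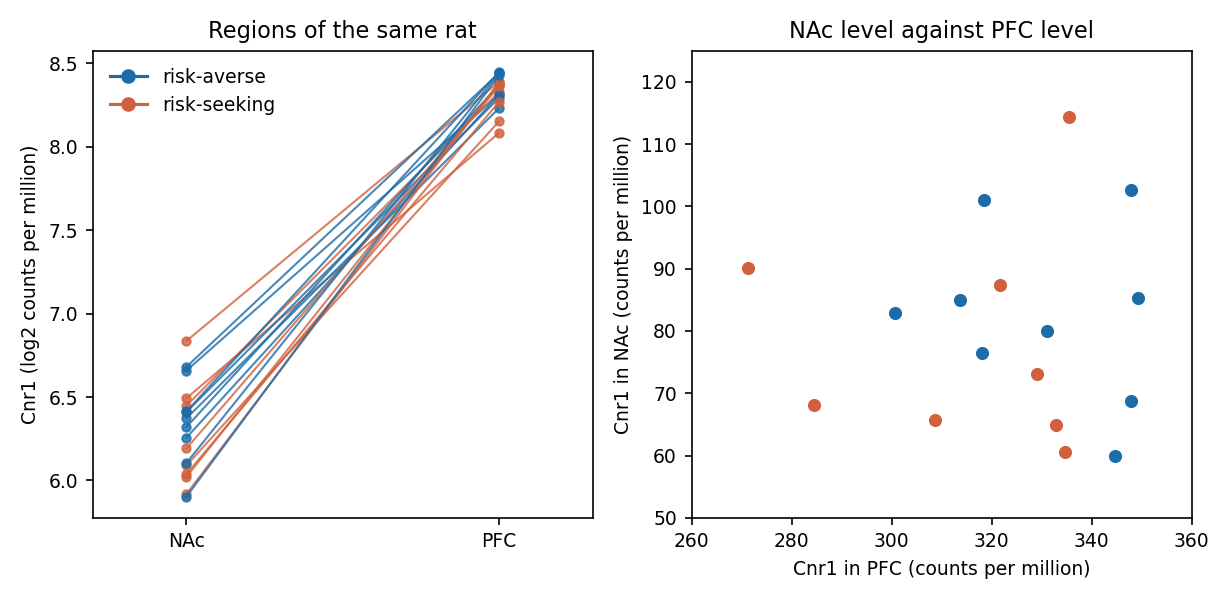
Left, Cnr1 as log2 CPM (y axis) in NAc and PFC of the 17 rats with both regions, each line being 1 rat. Right, Cnr1 in CPM in NAc (y axis) against PFC (x axis) of the same rats, with both axes starting above 0. All 17 lines rise from NAc to PFC, and the points on the right show no common trend (r = -0.047).

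The central question of the series was whether expression differs between risk-seeking and risk-averse rats. In PFC, Cnr1 was slightly lower in risk-seeking animals by means, with overlapping groups. In the risk-seeking group 6 of 9 values were under the median of the risk-averse group and 2 (BR4 at 285 CPM and BR5 at 271 CPM) under every risk-averse value, while 4 of 9 risk-averse libraries lay above every risk-seeking one. The log2 fold change of risk-seeking over risk-averse was -0.07 ± 0.05 (SE, n = 9 each, edgeR adjusted p = 0.316), and Cnr1 did not pass the threshold of 0.05. The 95% interval of the difference ran from 11.0% lower (log2 -0.17) to 2.19% higher (log2 0.03). This stands against 3521 of 15128 genes (23.3%, with 11.8% higher and 11.4% lower) called in the same fit, with Cnr1 at rank 8059 by p. That count was itself unstable, at 334, 0 and 1 genes with the unassigned, ambiguous and not-unique shares as covariates. It was 1 when the 4 rats with the largest unassigned share were dropped.

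In NAc the groups overlapped more. There 8 of 9 risk-seeking values fell inside the range of the risk-averse group, and 6 fell under its median. The log2 fold change was -0.10 ± 0.12 (SE, n = 9 each, edgeR adjusted p = 0.710), with a 95% interval from 21.1% lower (log2 -0.34) to 10.6% higher (log2 0.15). Differences of either sign within these bounds remain compatible with the data from 9 rats in each group. The bounds are not a limit of detection. No gene passed in NAc (0% of 15418, with 2748 at an unadjusted p under 0.05 in edgeR and 566 called by DESeq2, Cnr1 not among them at a DESeq2 adjusted p of 0.659). Over both regions, with the rat as a random effect in limma-voom, the log2 fold change was -0.09 ± 0.08 (SE, limma adjusted p = 0.466), where 22.3% of 15936 genes passed.

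The estimate in both regions moved with the read-category shares. With the ambiguous share as a covariate the log2 fold change in PFC was -0.003 (95% interval -0.13 to 0.12, edgeR adjusted p = 0.992). In NAc it was then -0.22 (95% interval -0.55 to 0.10, edgeR unadjusted p = 0.165, adjusted p = 0.9997). With the unassigned or the not-unique share instead, it was -0.085 or -0.086 in PFC, farther from 0 than the -0.07 without a covariate. In NAc these 2 shares gave -0.15 and -0.16, against -0.10 without a covariate. Neither region passed under any alternative that was run. The smallest adjusted p among them was 0.175 in PFC, without rat R9, and 0.346 in NAc, without rat R2 (edgeR). The unadjusted p in these fits was 0.0743 and 0.0741. A two-sided exact permutation test of mean log2 CPM gave p = 0.170 in PFC and p = 0.396 in NAc (n = 9 each).

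**Figure D3:**
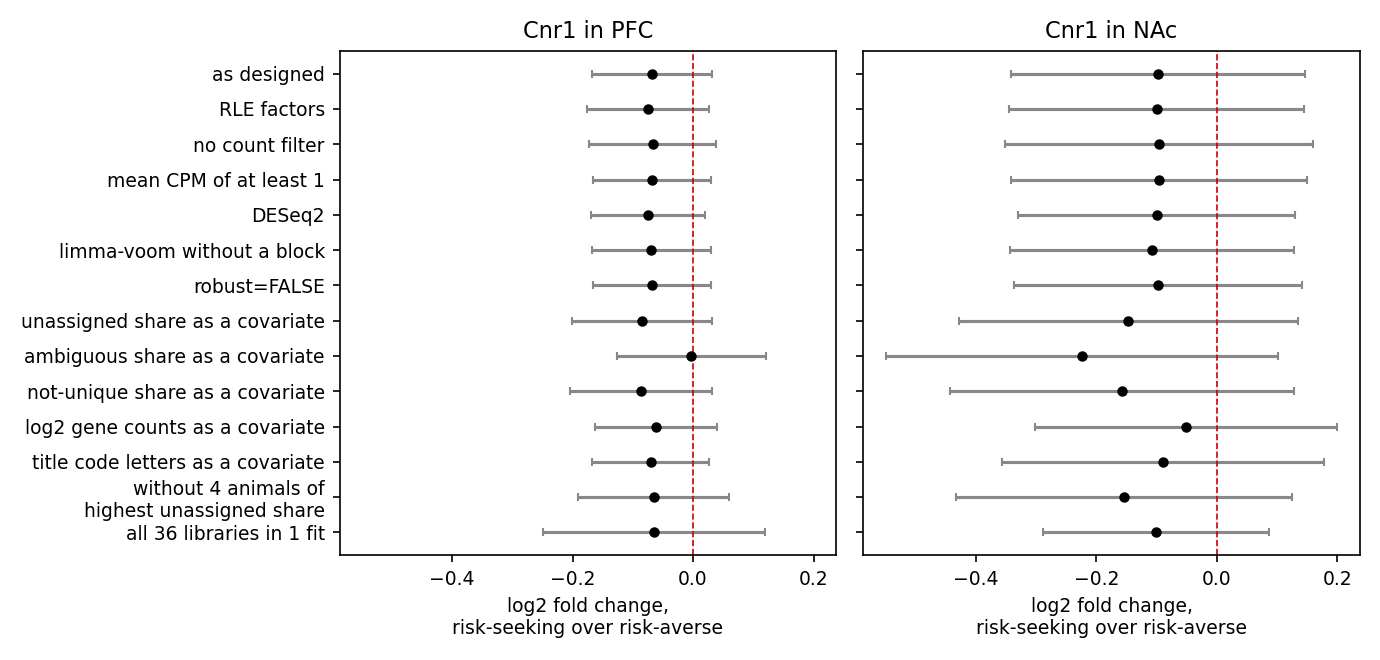
Log2 fold change of Cnr1 in risk-seeking over risk-averse rats (x axis) in PFC (left) and NAc (right) under each analysis setting (y axis). Points are estimates and bars 95% intervals. Every point lies below 0 and every interval crosses it, from -0.003 to -0.086 in PFC and from -0.05 to -0.22 in NAc.

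Relative to its level, Cnr1 varied more between rats in NAc than in PFC, while in CPM its SD was the smaller one in NAc, as given above. Its standard deviation around the group means was 0.27 on the log2 scale in NAc and 0.096 in PFC, a ratio of 2.82. Over 13397 genes of at least 1 CPM in both regions the median of this ratio was 0.978, and 99.5% of the genes had a smaller one than Cnr1. These genes were not matched to Cnr1 for regional difference. Genes of like excess in PFC were not compared separately, so the ratio is not shown to be particular to Cnr1. The deviation was larger in NAc than in PFC in 12 of 17 rats (sign-flip permutation test of absolute deviations, two-sided, p = 0.00233, a test chosen after the values were seen). Without R2, the highest NAc library, the ratio was 2.36 (permutation p = 0.0131), and without B2 and R2 it was 2.03 (permutation p = 0.0311).

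Both regions contributed to this ratio. In PFC Cnr1 was one of the steadier genes, with a biological coefficient of variation of 7.50% against a median of 11.1% over all genes (edgeR), and 10.4% of genes had a lower one. In NAc it was among the more variable ones at 17.3%, where 75.9% of genes had a lower one. For its abundance the fitted trend gave 9.54% in PFC and 9.58% in NAc. Counting error of at most 2.48% is small beside the NAc value.

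**Figure D4:**
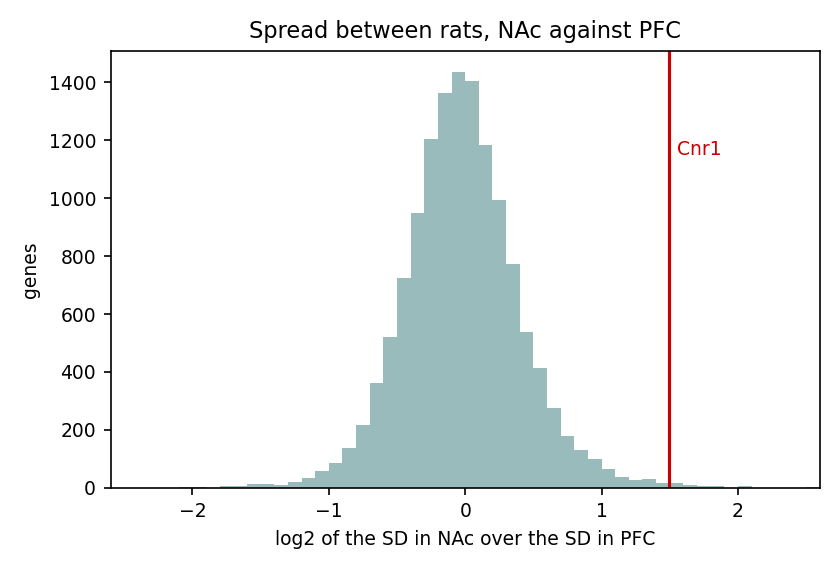
Number of genes (y axis) by the log2 of the SD between rats in NAc over that in PFC (x axis), for 13397 genes. The line marks Cnr1, whose ratio of 2.82 exceeds that of 99.5% of the genes.

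In NAc, the spread of Cnr1 went together with the level of genes that are mainly expressed in PFC. The 50 genes with the largest excess in PFC, at a mean of at least 10 CPM and with Cnr1 left out, were 9.25-fold or more higher there (median 15.7-fold). In NAc libraries their median level was 3.20% to 9.41% of the PFC mean. It was highest in R2 (9.41%), B5 (9.32%), N7 (9.03%) and B3 (8.75%), where Cnr1 was 114, 87.3, 103 and 101 CPM, and lowest in R1 (3.20%), B2 (3.25%) and N3 (3.73%), where Cnr1 was 65.0, 59.9 and 60.5 CPM. The 3 NAc libraries with the most Cnr1 were thus among the 4 with the most RNA of PFC-enriched genes. Over the 18 NAc libraries, Cnr1 and the mean log2 CPM of the 50 genes correlated at r = 0.85 and rho = 0.92. Without R1 and B2, the farthest from the median, r was 0.90. It was 0.92 in risk-averse and 0.81 in risk-seeking libraries (n = 9 each). No p is given because this gene set was chosen after the data were seen. The points share library, depth and scaling.

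Per percentage point of that PFC-enriched level, Cnr1 in NAc was higher by 6.31 ± 0.770 CPM (SE, n = 18, deviations from group means). For scale, 1 percent of the mean Cnr1 level in PFC is 3.23 CPM. In a separate step, the mean log2 CPM of the 50 PFC-enriched genes was held constant by least squares. The residual SD of Cnr1 in NAc was then 0.14 instead of 0.27 on the log2 scale, and the preference difference was -0.08 instead of -0.11. As a median percent of the PFC mean, the PFC-enriched level was 6.25% ± 2.09 in risk-averse and 5.88% ± 2.37 in risk-seeking NAc (SD, n = 9 each). The part of this PFC-enriched RNA in the spread of Cnr1 was not tested. The level of the 50 genes with the largest excess in NAc was also set against Cnr1 in NAc (r = -0.47, rho = -0.49, n = 18). That r was -0.058 in risk-averse and -0.74 in risk-seeking libraries (n = 9 each) and -0.35 without B3 and B5. In PFC, Cnr1 and the PFC-enriched genes correlated at r = 0.61 (rho = 0.34, n = 18), which fell to -0.043 without 2 libraries, BR4 and BR5, so it rests on them.

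**Figure D5:**
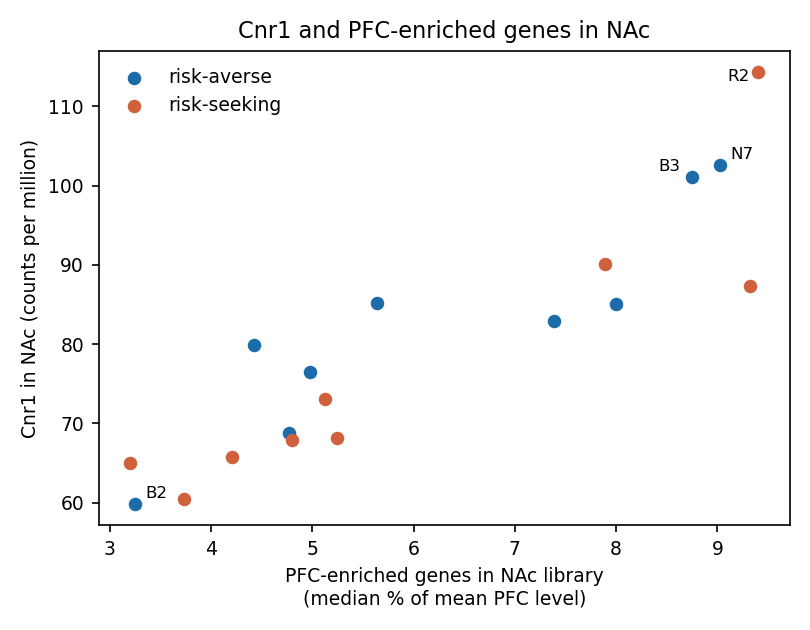
Cnr1 in CPM (y axis, not from 0) in the 18 NAc libraries against the level of 50 PFC-enriched genes in the same library, as the median percent of their mean PFC level (x axis). Points are libraries, and R2, N7, B3 and B2 are named. Libraries with more of the PFC-enriched RNA, up to 9.41% in R2, tend to hold more Cnr1, up to 114 CPM (r = 0.85 on the log2 scale).

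Genes that moved with Cnr1 from library to library were sought among the other 13396 genes of at least 1 CPM in both regions, by Pearson's r of deviations from the 4 group means over 36 libraries, as a description with no p. Cnr1 deviations were larger in NAc (SD 0.27 on the log2 scale against 0.096 in PFC), so NAc libraries weigh more in this r. Over the 5 closest genes, r ran from 0.88 to 0.95 within NAc and from 0.077 to 0.89 within PFC. The closest was ENSRNOG00000011425 (r = 0.88 over all, 0.92 within NAc and 0.56 within PFC). Like Cnr1 it was much higher in PFC, at 66.6 ± 4.92 CPM against 6.24 ± 2.78 CPM in NAc (SD, n = 18 each). Next came ENSRNOG00000010183 (r = 0.85, 0.95 within NAc and 0.51 within PFC), whose levels differed less between the regions, at 13.4 ± 2.12 CPM in PFC and 10.2 ± 2.94 CPM in NAc. The most opposite were ENSRNOG00000036680 (r = -0.61) and ENSRNOG00000011161 (r = -0.61). None of these 4 genes passed the preference test in either region (lowest edgeR adjusted p = 0.107).

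The genes most alike to Cnr1 were listed within each region, as a description with no test of their overlap. At an absolute r above 0.8 there were 69 genes within NAc and 65 within PFC, and 1 gene was in both sets. Of the 100 genes most alike within each region, 2 were shared. The overlap that chance gives for sets of these sizes was not worked out, so neither count is read as low or high. The PFC lists were not repeated without BR4 and BR5, the libraries of lowest Cnr1 there. Across genes, the NAc and PFC correlations with Cnr1 were themselves nearly unrelated (r = 0.038 over 13396 genes, which are not independent). Plain log2 CPM over 36 libraries gave r above 0.9 for 1303 genes, up to 0.99, a measure that includes the difference between regions.

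Which gene models the reads of Cnr1 could share bears on all these levels. In the RefSeq table for GRCr8, a later assembly than the one used for the counts, Cnr1 lies between the protein-coding genes Rngtt and Spaca1 and has 8 transcript models. A long non-coding RNA gene, LOC120102853, and a pseudogene, LOC120103344, overlap its span there. No label states whether the annotation behind the counts held them or whether strand was used. Whether reads of an overlapping gene were counted for Cnr1, or left out as ambiguous, is therefore not known.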

How the data were processed

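Libraries were made from miRNeasy total RNA with the TruSeq RNA version 2 kit and read as 101-bp pairs, per the labels' protocols. Per the submitters' processing notes, Trimmomatic, STAR 2.5.3a, HTSeq 0.9.0 and edgeR were used, with the builds Rnor_6.0 and rn6. No source used here gives the annotation release or the strand setting. The authors deposited raw counts per gene with no normalisation, whole numbers for 32623 Ensembl identifiers and 5 HTSeq summary categories, which were kept out of library sizes and tests.

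Region and preference came from the labels and rat codes from the titles. A chi-square test of the 144 same-group library pairs gave 6.97 to 44.9 per degree of freedom, and no pair was a repeat deposit. Same-rat libraries were paired by title, and the deviations of all genes correlated at 0.130 to 0.551 between the regions of a rat, with 16 of 17 NAc libraries closest to their own PFC library.

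Genes passing filterByExpr by group received TMM factors and entered the quasi-likelihood test of edgeR 4.0.16 in R 4.3.3 (robust=TRUE), with Benjamini-Hochberg adjustment over all genes tested and a threshold of 0.05. Standard errors were derived from the fold change and F. For both regions together, limma 3.58.1 with voom was run with rats as a random effect (duplicateCorrelation, 0.395). DESeq2 1.42.0 was an alternative. Log2 CPM used a prior count of 2. Permutation tests of single values enumerated all regroupings with fewer than 10 values in a group and otherwise drew 100000. The scripts were tested on simulated data. The counting error given for single libraries covers counting only. Intervals of fold changes came from the fitted models, so they also include the spread between libraries of a group. The labels do not say that libraries come from separate litters or cages.

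The gene, the lists and the tests were chosen with earlier results of these data known. The genes named as moving with Cnr1 were those of highest and lowest correlation of deviations, with a mean of at least 1 CPM in both regions. At most 2 in each direction are printed, because 0 of 32623 identifiers matched the RefSeq table. The endocannabinoid and cell type marker lists were therefore not analysed here, and no gene coordinates or sequences are given. Fits with the animal as a block dropped the 2 rats with 1 region. Tests of absolute deviations and the sets of region-enriched genes were added after the data were seen.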

Additional observations from a re-analysis of the deposited data

Results flagged for a closer look

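Of 30 groups of 8 or 9 values examined (Cnr1, its regional difference within rats, the 4 genes named as moving with or against it, and the region-enriched gene sets), 3 held an isolated lowest or highest value by Dixon's test, against about 1.5 that chance gives. None was a value of Cnr1. In risk-averse NAc, rat B2 had the lowest mean log2 CPM of the 50 PFC-enriched genes, 0.888 against 1.89 to 2.67 in the others. The NAc library of B2 also had the highest unassigned share of all 36 libraries, 33.0%. Whether the 2 go together was not tested. Its Cnr1 level of 59.9 CPM was the lowest of all NAc libraries. The risk-seeking NAc library of rat R1 was lower still in those genes, at 0.815, where Cnr1 was 65.0 CPM. In risk-seeking NAc, rat R2 had 17.8 CPM of ENSRNOG00000010183 against 6.88 to 11.4 CPM, and its Cnr1 level of 114 CPM was the highest of all NAc libraries. That gene was picked by its correlation with Cnr1, so the match in R2 is no separate evidence. For the same reason the groups of the 4 named genes are not independent of Cnr1. In risk-averse PFC, rat R9 had 11.2 CPM of ENSRNOG00000011161 against 8.35 to 9.74 CPM.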

How the results depend on the processing

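The regional difference of Cnr1 kept its direction and call under all 18 alternatives and 19 fits that left out 1 rat (log2 1.95 to 2.09), with the animal as a replicate block among them (2.03, edgeR adjusted p = 1.17e-16). The preference differences in PFC, in NAc and over both regions stayed below 0 and past no threshold under all 14, 14 and 8 alternatives and all fits without 1 rat. The interaction was 0.02 with the replicate block, and turned to -0.010 and -0.0028 when the ambiguous or the not-unique share was added to the block. It ranged from -0.012 to 0.115 without single rats, being below 0 without B3, N3 or R1. The within-rat difference between preference classes was -8.93e-05 with RLE factors and ranged from -0.0402 to 0.0902 without single rats, being below 0 without B3, N1, N3, N7 or R1. The correlation between regions was 0.147 without the 4 animals of highest unassigned share (all risk-averse) and -0.163 to 0.0833 without single rats, being above 0 without B2, BR5, BR9 or N3. None of these passed a threshold, and the cause of the changes in sign was not tested. Counts over all genes moved more than Cnr1. In PFC 3521 genes passed, but only 334, 0 and 1 with the unassigned, ambiguous and not-unique shares as covariates, 1 without those 4 animals and 2264 without rat B3. In NAc 944 passed without rat R9 and 566 in DESeq2, against 0. Over both regions 3561 passed, but 1486, 0 and 0 with the 3 shares and 7 without the 4 animals. Between regions 12313 passed, and 7502 with the block and the unassigned share. Counts of endocannabinoid genes were not run, since the list could not be matched to identifiers. Counting error of Cnr1 was at most 2.48% in any library.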
